A study of Homo sapiens with 6 samples.

Results

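The 10 genes described here are the heat shock transcription factor HSF1 and 9 cytosolic chaperones and partner proteins that heat shock is known to induce through it, namely HSPA1A, HSPA1B, HSPA8, HSPH1, HSPA4L, DNAJB1, HSPB1, HSP90AA1 and BAG3. They were picked by gene symbol and by no cut-off on measured values, but with earlier results of these data known. Each symbol matched 1 of the 60605 genes in the deposited table. RNA sequencing compared MDA-MB-231 cells, a human triple-negative breast cancer cell line, with and without knockdown of PUS1, an enzyme that converts uridine to pseudouridine in tRNA and other RNAs. The shControl group had 3 libraries from cells carrying a negative control hairpin, and the shPUS1 group had 3 libraries from cells carrying a hairpin against PUS1. Both groups were stable lines made with a lentiviral vector and kept under puromycin in RPMI 1640 medium with serum, and no heat or other stress treatment is given for either. The labels do not say whether the 3 libraries of a group came from separate infections, so p-values measure the spread between these libraries only. The hairpin of the sequenced shPUS1 cells is not named, and an effect of the hairpin itself cannot be told apart from that of lower PUS1.

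HSF1 is held inactive in unstressed cells by the chaperones whose genes it serves. When unfolded proteins occupy those chaperones, HSF1 forms trimers, enters the nucleus and binds heat shock elements, which are inverted repeats of the pentamer NGAAN in front of chaperone genes. The HSP70 proteins fold clients with the help of J-domain proteins and nucleotide exchange factors, HSP90 takes over clients such as kinases and HSF1 itself, and many tumour cells depend on this network.

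HSPH1, an HSP110 protein that exchanges nucleotide on HSP70, rose 2.39-fold (95% interval 1.85 to 3.08), and HSP90AA1, the stress-inducible HSP90, was 1.71-fold lower. All 10 genes passed the filter on low counts and were tested, and 2 of them passed at an adjusted p under 0.05 (edgeR's quasi-likelihood test, Benjamini-Hochberg adjustment over 14748 genes), 1 higher and 1 lower. Over all genes tested, 2.58% passed, 1.74% as higher and 0.841% as lower in shPUS1. The 3 values of the groups did not overlap for 6 of the 10 genes, 3 higher (HSPA1A, HSPA1B, HSPH1) and 3 lower (HSPA4L, HSPB1, HSP90AA1), against 36.1% of all genes tested, 18.8% as higher and 17.3% as lower. The median log2 fold change of the 10 genes was -0.08 and that of all genes tested was -0.03, while the median absolute log2 fold change was 0.4 for the 10 genes and 0.31 for all genes tested. Leaving out shControl replicate 2 raised the number past the test from 2 to 4, leaving out shControl replicate 1 or any of the 3 shPUS1 libraries brought it to 0, and without shControl replicate 3 it was 2. The count over all genes moved with it, from 380 to 2813 without shControl replicate 2, to between 0 and 11 without shControl replicate 1 or any shPUS1 library, and to 474 without shControl replicate 3. With DESeq2, 3 of the 10 genes passed (HSPB1 in addition), against 13.0% of the 13303 genes to which DESeq2 gave an adjusted p.

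Depth ranged from 14241505 to 19625998 estimated counts per library, and each value of the 10 genes rests on 452 to 44965 of them. The targeted gene PUS1 had 2.57, 4.66 and 2.18 FPKM in shControl replicates 1, 2 and 3 and 1.13, 0.95 and 0.93 FPKM in the shPUS1 libraries. FPKM, counts scaled to exonic length and to the library total, is the scale of the levels and of the rankings by abundance below, unless another scale is named. The groups did not overlap for PUS1, and its log2 fold change was -1.64 (SE 0.32, edgeR adjusted p = 0.0462). The library shControl replicate 2 stood apart from its group: across genes its log2 values had r = 0.9505 and 0.9521 with the other shControl libraries, while those had r = 0.981 with each other and the shPUS1 libraries had r between 0.9872 and 0.9906. All 4 markers of this cell line (VIM, CD44, CAV1 and AXL) were present in every library, with a summed level between 814 and 1030.0 FPKM in shControl and between 602 and 638 FPKM in shPUS1. VIM (vimentin) lay between 399.9 and 498 FPKM in shControl and between 286 and 339 FPKM in shPUS1. All 4 markers had a log2 fold change below 0 and 3 did not overlap between the groups, while 0 passed with edgeR, 3 had an unadjusted edgeR p under 0.05 and 2 (VIM and AXL, both lower) passed with DESeq2. Over all genes tested, 7769 of 14748 had a log2 fold change below 0. The part of these markers in the results below was not tested. Of 8 epithelial and luminal markers, ESR1, PGR and FOXA1 were at or near 0 and too low to be tested, and CDH1 was near 0 too. The others were present, led by KRT18 (keratin 18) between 63.8 and 74.0 FPKM in shControl and between 67.1 and 70.4 FPKM in shPUS1, and 0 of the 5 tested passed with edgeR or had an unadjusted edgeR p under 0.05, nor did any of the 4 with an adjusted p in DESeq2 pass there.

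**Figure D1:**
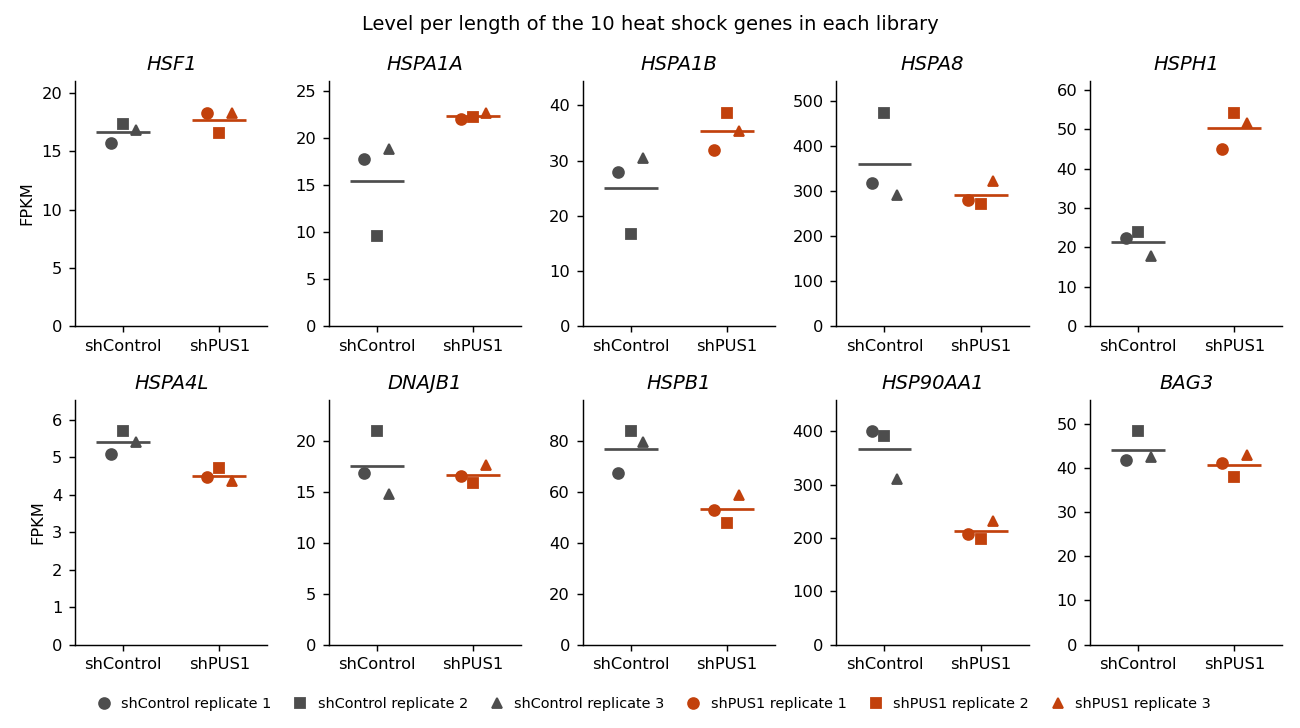
Level of each of the 10 heat shock genes in each library, in FPKM on a linear axis that starts at 0. Grey symbols are the 3 shControl libraries, orange symbols the 3 shPUS1 libraries, and horizontal lines the group means. HSPH1 lay between 17.7 and 23.9 FPKM in shControl and between 45.1 and 54.2 FPKM in shPUS1, and HSP90AA1 between 311 and 400.0 FPKM and between 198 and 232 FPKM.

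The promoters of these genes were searched for heat shock elements, since the elements are what the 9 targets are known to share. RefSeq start sites (GRCh38.p14) were found for 9 of the 10 genes, with 14 windows of 300 bases in all, each from 250 bases before to 50 bases after a start site. An element of 3 units, GAANNTTCNNGAA or its reverse complement TTCNNGAANNTTC, was present for 2 genes, HSP90AA1 and HSPA8. Counted by window it was in 2 of these 14, and in 0.49% of the 35116 promoter windows of all genes. An element of 2 units, GAANNTTC or TTCNNGAA, each its own reverse complement and contained in the element of 3 units, was present for 7 genes. Counted by window it was in 8 of the 14, and in 13.5% of all windows. The windows of HSPH1 and BAG3 held neither, which says only that these letters are absent there. HSP90AA1 has 2 windows, HSPA4L and DNAJB1 have 3 each, and at least 1 window of each of these genes held neither element. Which start site is used in these cells was not tested. The stretches around the elements are shown for all 7 genes, once for each gene, 5′ to 3′ on the strand of the gene, with elements in capitals.
HSP90AA1 (chr14:102087080-102087172, minus strand): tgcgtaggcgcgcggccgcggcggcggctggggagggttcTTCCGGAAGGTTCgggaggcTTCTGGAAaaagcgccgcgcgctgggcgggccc
HSPA8 (chr11:123062139-123062231, minus strand): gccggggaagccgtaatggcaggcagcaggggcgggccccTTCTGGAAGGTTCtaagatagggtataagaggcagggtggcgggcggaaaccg
HSPA1A (chr6:31815397-31815484, plus strand): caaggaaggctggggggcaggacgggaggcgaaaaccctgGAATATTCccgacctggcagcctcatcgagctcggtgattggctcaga
HSPA1B (chr6:31827593-31827680, plus strand): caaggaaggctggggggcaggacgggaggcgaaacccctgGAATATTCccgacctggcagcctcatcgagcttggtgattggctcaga
DNAJB1 (chr19:14518398-14518484, minus strand): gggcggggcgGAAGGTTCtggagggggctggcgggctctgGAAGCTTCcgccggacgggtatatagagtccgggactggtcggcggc
HSPA4L (chr4:127782112-127782199, plus strand): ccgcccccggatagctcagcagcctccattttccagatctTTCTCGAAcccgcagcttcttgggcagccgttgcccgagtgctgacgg
HSPB1 (chr7:76302451-76302538, plus strand): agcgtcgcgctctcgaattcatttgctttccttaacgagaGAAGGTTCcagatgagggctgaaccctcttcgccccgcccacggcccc
The element of HSP90AA1 lay 88 to 76 bases before the start site, the nearer of the 2 elements of 3 units in HSPA8 lay 55 to 43 bases before it, and the elements of HSPA1A and HSPA1B lay 106 to 99 and 105 to 98 bases before it. The printed stretches of HSPA1A and HSPA1B were identical at 86 of 88 bases.

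Gene positions below are those of the deposited table. For 8 of the 10 genes the start and the end lay within 100 bases of those in GENCODE release 29 (GRCh38). The exceptions were HSPB1, with a start 129 bases apart, and DNAJB1, with an end 30621 bases apart. HSF1 (ENSG00000185122, chromosome 8, 144291591 to 144314720) encodes the transcription factor that drives the other 9 genes under stress. Its mRNA stood at 15.7, 17.4 and 16.9 FPKM in shControl replicates 1, 2 and 3 and at 18.3, 16.6 and 18.3 FPKM in the shPUS1 libraries. The groups overlapped, and the log2 fold change was 0.11 (SE 0.12, 95% interval -0.16 to 0.38, edgeR adjusted p = 0.582). HSF1 is controlled mostly as a protein, by its release from chaperones and by phosphorylation, which these data do not measure. Of the other heat shock factors and HSF-binding proteins, 0 of 4 tested passed with edgeR or with DESeq2, and 0 had an unadjusted edgeR p under 0.05. DGAT1 overlaps HSF1 on the opposite strand with a mean of 456 counts per library, beside 1252 to 1810 counts for HSF1. HSF2, the factor with the highest level among them, ranged from 14.3 to 19.7 FPKM in shControl and from 18.0 to 21.2 FPKM in shPUS1, with overlap between the groups.

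HSPH1 (ENSG00000120694, chromosome 13, 31134973 to 31162388) stood at 22.3, 23.9 and 17.7 FPKM in shControl replicates 1, 2 and 3 and at 45.1, 54.2 and 51.7 FPKM in shPUS1 replicates 1, 2 and 3. Every shPUS1 library lay above every shControl library, and the lowest of them was well clear of the highest control. The log2 fold change was 1.26 (SE 0.16, 95% interval 0.89 to 1.63, edgeR adjusted p = 0.022), the 266th highest of 14748 genes tested and the only 1 of the 10 genes with a change of at least 2-fold, which 1.37% of all genes tested had together with an adjusted p under 0.05. Its direction held under each of the 13 alternatives, with log2 fold changes between 1.12 and 1.37, and its adjusted p lay between 6.64e-09 (DESeq2) and 0.184 (without shPUS1 replicate 2). It passed the threshold without shControl replicate 2 or 3, but not without shControl replicate 1 (adjusted p = 0.083) or any shPUS1 library (adjusted p from 0.142 to 0.184). No stretch of 100 bases of HSPH1 transcripts occurred in a transcript of another gene. Shorter or imperfect matches, and copies outside annotated transcripts, were not searched.

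HSPH1 has close relatives that do the same exchange reaction on HSP70, HSPA4L and HSPA4, and neither passed the test. HSPA4L (ENSG00000164070, chromosome 4, 127781821 to 127840733), the least abundant of the 10 genes, had 5.10, 5.69 and 5.41 FPKM in the shControl libraries and 4.47, 4.71 and 4.36 FPKM in the shPUS1 libraries. All shPUS1 values were below all shControl values by a small margin, and the log2 fold change of -0.24 (SE 0.12, 95% interval -0.52 to 0.04) did not pass (edgeR adjusted p = 0.255). An unnamed gene (ENSG00000244021) overlaps HSPA4L on the opposite strand with a mean of 211.5 counts per library, beside 854 to 1278 counts for HSPA4L. HSPA4, which is not 1 of the 10 genes, ranged from 55.1 to 69.8 FPKM in shControl and from 70.8 to 77.1 FPKM in shPUS1, without overlap by a small margin. In CPM its groups overlapped, with 366 in shControl replicate 2 and 362 in shPUS1 replicate 2. Its log2 fold change was 0.23 (SE 0.14, edgeR adjusted p = 0.324). The ratio of HSPH1 to HSPA4L, both in FPKM, was 4.38, 4.20 and 3.28 in shControl replicates 1, 2 and 3 and 10.1, 11.5 and 11.9 in the shPUS1 libraries. The ratio of HSPH1 to HSPA4 was between 0.322 and 0.345 in shControl and between 0.632 and 0.765 in shPUS1. Neither ratio overlapped between the groups, and each gave an exact two-sided permutation p of 0.1, the smallest that 3 against 3 libraries can reach.

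HSP90AA1 (ENSG00000080824, chromosome 14, 102080742 to 102139699) encodes the stress-inducible HSP90, and its promoter stretch above held an element of 3 units. That stretch is from 1 of its 2 windows, and the window at the outer end of the deposited gene (102139700 to 102139999) held neither element. It stood at 400.0, 391 and 311 FPKM in shControl replicates 1, 2 and 3 and at 207, 198 and 232 FPKM in shPUS1 replicates 1, 2 and 3. The groups did not overlap, and shControl replicate 3 was the control nearest to the knockdown values. The log2 fold change was -0.77 (SE 0.15, 95% interval -1.11 to -0.43, edgeR adjusted p = 0.0446), and it lay between -0.90 and -0.70 under the alternatives, with adjusted p between 0.000633 and 0.253. Like HSPH1 it did not pass without shControl replicate 1 (adjusted p = 0.0995) or without any shPUS1 library (adjusted p from 0.184 to 0.253). Stretches shared with other genes made up 1.28% of its transcripts. The gene WDR20 overlaps it on the opposite strand with a mean of 422 counts per library, and the strandedness of the counting is not given in the sources used here.

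HSP90AB1, the constitutive HSP90 and not 1 of the 10 genes, was the more abundant form in every library. Its level was 835, 886 and 669 FPKM in the shControl libraries and 601, 564 and 640.0 FPKM in the shPUS1 libraries. These groups did not overlap either, but the log2 fold change of -0.39 (SE 0.15, 95% interval -0.73 to -0.04) did not pass (edgeR adjusted p = 0.159). The ratio of HSP90AB1 to HSP90AA1 was 2.09, 2.26 and 2.15 in shControl and 2.90, 2.85 and 2.76 in shPUS1, without overlap (exact two-sided permutation p = 0.1).

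**Figure D2:**
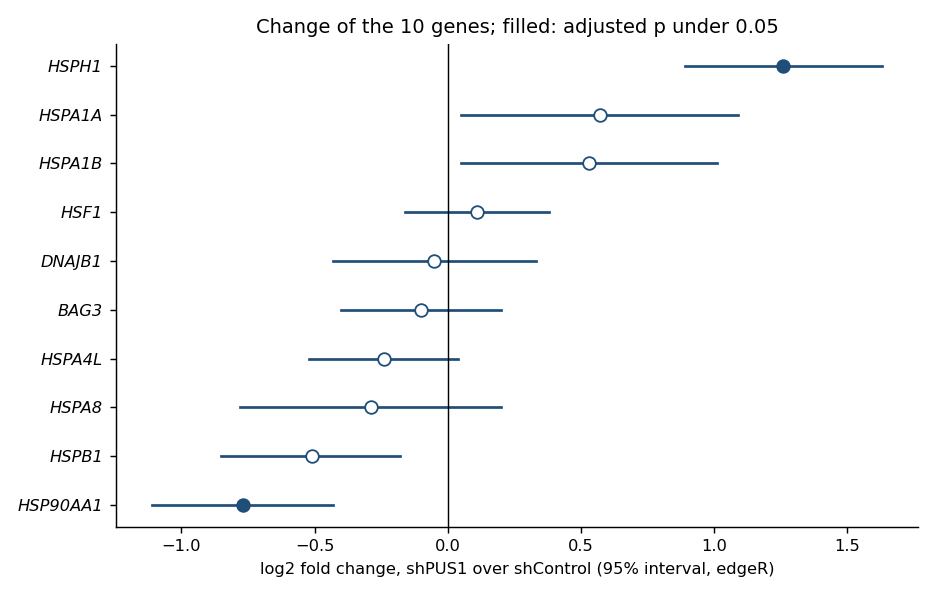
Log2 fold change of each of the 10 genes, shPUS1 over shControl, from edgeR, with lines for 95% intervals. Filled points are HSPH1 at 1.26 and HSP90AA1 at -0.77, which had an adjusted p under 0.05. Open points are the other 8 genes, of which HSPA1A, HSPA1B and HSPB1 have intervals that exclude 0 before adjustment.

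HSPA1A and HSPA1B encode the stress-inducible HSP70 and lie next to each other on chromosome 6, HSPA1A (ENSG00000204389) from 31815543 to 31817946 and HSPA1B (ENSG00000204388) from 31827738 to 31830254. HSPA1A stood at 17.8, 9.58 and 18.8 FPKM in shControl replicates 1, 2 and 3 and at 22.0, 22.2 and 22.6 FPKM in the shPUS1 libraries. HSPA1B stood at 27.9, 16.7 and 30.5 FPKM in the shControl libraries and at 32.0, 38.6 and 35.5 FPKM in the shPUS1 libraries. Both genes were higher in every shPUS1 library than in any shControl library, and in both shControl replicate 2 was the low value. The log2 fold change of HSPA1A was 0.57 (SE 0.23, 95% interval 0.05 to 1.09, edgeR adjusted p = 0.17). That of HSPA1B was 0.53 (SE 0.21, 95% interval 0.05 to 1.01, edgeR adjusted p = 0.164).

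Most of the sequence of these HSP70 mRNAs is shared, so their separate values are uncertain. Of the 100-base stretches of HSPA1A transcripts, 67.3% occurred in transcripts of HSPA1B, and of those of HSPA1B, 68.8% occurred in HSPA1A and 72.7% in any other gene. A further gene (ENSG00000285565), with a mean of 11.3 counts per library, overlaps HSPA1B on the same strand. The summed counts of HSPA1A and HSPA1B do not depend on how reads were divided between these genes, and they stood at 111, 66.8 and 118 CPM (counts scaled to the library total) in shControl replicates 1, 2 and 3 and at 135, 151 and 145 CPM in the shPUS1 libraries. The groups did not overlap. The summed log2 fold change was 0.54 (SE 0.21, 95% interval 0.06 to 1.03, edgeR adjusted p = 0.161, unadjusted p = 0.0325). HSPA1B made up between 59.3% and 63.5% of the summed FPKM in all 6 libraries, a share that does depend on that division. Without shControl replicate 2 the summed log2 fold change was smaller, 0.32, but it passed (edgeR adjusted p = 0.0463), as did HSPA1A alone at 0.33 (edgeR adjusted p = 0.0405), while HSPA1B at 0.32 did not (edgeR adjusted p = 0.07).

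The library shControl replicate 2 was also low in most of the immediate early mRNAs listed. The summed level of 8 such genes, which are induced within minutes by growth factors or stress, was 303, 121 and 287 FPKM in shControl replicates 1, 2 and 3 and lay between 285 and 297 FPKM in the shPUS1 libraries. DUSP1, a MAP kinase phosphatase and the most abundant of them, had 15.9 FPKM in shControl replicate 2 and between 103 and 137 FPKM in the other 5 libraries. Much of the gap in the sum is thus DUSP1. IER2 was not low there, with 24.7 FPKM beside 26.9 and 22.4 FPKM in shControl replicates 1 and 3. All 8 immediate early genes had a log2 fold change above 0, with a median of 0.39, and 0 of 8 passed with edgeR or with DESeq2, 3 having an unadjusted edgeR p under 0.05. Over all genes tested, 6979 of 14748 had a log2 fold change above 0. On the log2 CPM scale, shControl replicate 2 differed from the mean of the other shControl libraries by -0.85 for HSPA1A, -0.73 for HSPA1B and 0.72 for HSPA8, against a median absolute difference of 0.43 over all genes tested.

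HSPA8 (ENSG00000109971, chromosome 11, 123057489 to 123063230) encodes the constitutive HSP70, which folds new proteins in unstressed cells, and its promoter stretch above holds an element of 3 units. It had 316, 472 and 290 FPKM in the shControl libraries, where replicate 2 was the highest of all 6, and 280.3, 270.4 and 322 FPKM in the shPUS1 libraries. The groups overlapped, and the log2 fold change was -0.29 (SE 0.21, 95% interval -0.78 to 0.20, edgeR adjusted p = 0.408). Without shControl replicate 2 it was -0.02 (edgeR adjusted p = 0.92). The inducible and the constitutive HSP70 thus lay at opposite extremes in shControl replicate 2, where the ratio of HSPA8 to the sum of HSPA1A and HSPA1B was 18.0. That ratio was 6.92 and 5.88 in shControl replicates 1 and 3 and 5.19, 4.44 and 5.54 in the shPUS1 libraries. The groups did not overlap, but shControl replicate 3 was close to the highest shPUS1 value (exact two-sided permutation p = 0.1).

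DNAJB1 (ENSG00000132002, chromosome 19, 14514769 to 14560391), the heat-inducible J-domain protein that delivers clients to HSP70, stood at 16.9, 21.0 and 14.8 FPKM in the shControl libraries and at 16.6, 15.9 and 17.7 FPKM in the shPUS1 libraries. The shPUS1 values fell within the shControl range, and the log2 fold change was -0.05 (SE 0.16, 95% interval -0.43 to 0.33, edgeR adjusted p = 0.862). It turned to 0.12 without shControl replicate 2, which was the highest library for this gene, so no direction can be given. TECR overlaps DNAJB1 on the opposite strand with a mean of 1754 counts per library. The other cytosolic J-domain proteins, which bring substrates to HSP70 under normal growth, had 0 of 7 tested past the threshold with edgeR or with DESeq2, and 0 with an unadjusted edgeR p under 0.05. All 7 log2 fold changes were above 0, from 0.06 to 0.52, as were 6979 of those of the 14748 genes tested. DNAJB2 had the highest, and shControl replicate 2 was its low value. It stood at 7.26, 3.52 and 6.80 FPKM in shControl replicates 1, 2 and 3 and between 7.84 and 8.42 FPKM in shPUS1. DNAJA1, the most abundant of them, had between 84.8 and 127 FPKM in shControl, where replicate 2 was the highest, and between 111 and 129 FPKM in shPUS1.

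BAG3 (ENSG00000151929, chromosome 10, 119651380 to 119677819) links HSP70 to small heat shock proteins and to the selective autophagy of misfolded clients. Its mRNA stood at 41.8, 48.4 and 42.5 FPKM in the shControl libraries and at 41.1, 38.0 and 43.0 FPKM in the shPUS1 libraries. The groups overlapped, and the log2 fold change was -0.10 (SE 0.13, 95% interval -0.40 to 0.20, edgeR adjusted p = 0.653). Among the other HSP70 exchange factors and partner proteins 0 of 7 passed with edgeR or with DESeq2, 2 had an unadjusted edgeR p under 0.05, and the median log2 fold change was -0.09. ST13, a cochaperone that stabilises the client-bound HSP70 and the most abundant of them, had between 35.0 and 46.5 FPKM in shControl and between 36.5 and 43.6 FPKM in shPUS1.

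HSPB1 (ENSG00000106211, chromosome 7, 76302673 to 76304295), known as HSP27, is a small heat shock protein that holds unfolded clients without ATP and binds actin. It stood at 67.6, 83.7 and 79.4 FPKM in shControl replicates 1, 2 and 3 and at 52.7, 47.8 and 58.8 FPKM in the shPUS1 libraries. All shPUS1 values were below all shControl values. The log2 fold change was -0.51 (SE 0.14, 95% interval -0.85 to -0.18), which did not pass (edgeR adjusted p = 0.0897) but did with DESeq2 (adjusted p = 0.0369) and without shControl replicate 2 (-0.43, edgeR adjusted p = 0.0398). The stretches that HSPB1 shares with its pseudogene HSPB1P1 made up 2.37% of its transcripts. Of the 6 other genes listed by their HSPB or CRYAB symbols, 5 were too low to be tested in these cells. The remaining gene, HSPB11, is listed for its symbol only and not as a proven small heat shock protein. It had between 6.59 and 11.9 FPKM in shControl and between 6.59 and 7.47 FPKM in shPUS1.

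The order of the 10 genes by FPKM differed between the groups. This order depends on the exonic length that FPKM divides by. In CPM, HSPH1 already stood above HSPB1 in shControl, with means of 178 and 124. In shControl the means ran from HSP90AA1 at 368 and HSPA8 at 359 FPKM, whose ranges overlapped, through HSPB1 at 76.9 and BAG3 at 44.2 FPKM to HSPA1B, HSPH1, DNAJB1, HSF1 and HSPA1A between 25.0 and 15.4 FPKM, each of which overlapped its neighbour, and HSPA4L at 5.40 FPKM. In shPUS1 HSPA8 at 291 FPKM stood above HSP90AA1 at 212 FPKM without overlap, and HSPH1 at 50.3 FPKM stood next to HSPB1 at 53.1 FPKM, whose range it overlapped. The ratio of HSP90AA1 to HSPH1 was 17.9, 16.4 and 17.5 in shControl replicates 1, 2 and 3 and 4.59, 3.66 and 4.49 in the shPUS1 libraries. The ratio of HSPA8 to HSPH1 was 14.2, 19.8 and 16.3 in shControl and 6.22, 4.99 and 6.22 in shPUS1. Both ratios were without overlap, and both use the values of HSPH1 already described. The summed level of the 10 genes was 931, 1090.0 and 827 FPKM in shControl and 720, 707 and 805 FPKM in shPUS1, lower without overlap (exact two-sided permutation p = 0.1). HSP90AA1 made up between 35.9% and 43.0% of this sum in shControl and between 28.0% and 28.8% in shPUS1, and HSPH1 between 2.14% and 2.40% and between 6.27% and 7.67%. HSPA8 made up between 34.0% and 43.3% in shControl, highest in replicate 2, and between 38.3% and 39.9% in shPUS1. The sum thus mostly follows HSP90AA1 and HSPA8 and says little of the other genes.

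**Figure D3:**
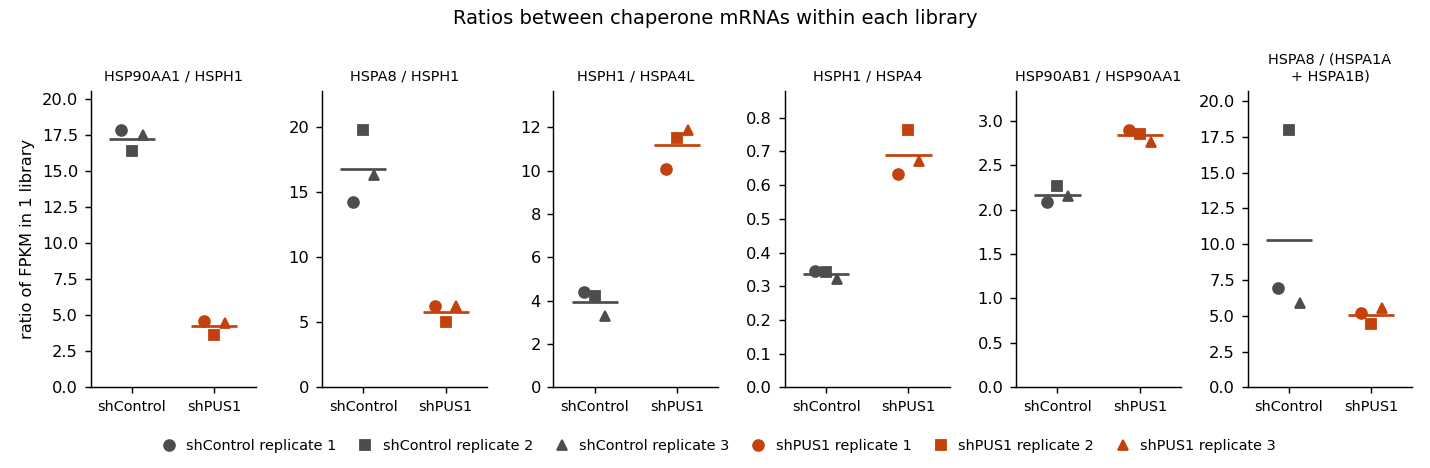
Ratios of chaperone mRNA levels, in FPKM over FPKM, within each library, on linear axes that start at 0. Grey symbols are the 3 shControl libraries, orange symbols the 3 shPUS1 libraries, and horizontal lines the group means. HSP90AA1 over HSPH1 lay between 16.4 and 17.9 in shControl and between 3.66 and 4.59 in shPUS1, and HSPA8 over the sum of HSPA1A and HSPA1B was highest in shControl replicate 2.

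Of the rest of the heat shock pathway, 1 gene passed with edgeR, and its protein is not cytosolic. Of 47 genes in 7 lists, 40 were tested, and 1 passed, SERPINH1, against 2.58% of all genes. Of these lists, only that of other HSF1 targets held a gene that passed. The groups did not overlap for 11 of the 40, 6 higher and 5 lower, against 36.1% of all genes tested, and the median log2 fold change of the 40 was -0.02. SERPINH1, also called HSP47, is a collagen chaperone of the endoplasmic reticulum whose gene HSF1 binds. It stood at 24.9, 32.3 and 25.7 FPKM in shControl replicates 1, 2 and 3 and at 14.5, 12.7 and 13.3 FPKM in the shPUS1 libraries. All shPUS1 values were below all shControl values, and the log2 fold change was -1.01 (SE 0.15, 95% interval -1.37 to -0.66, edgeR adjusted p = 0.0319). Like the others it did not pass without shControl replicate 1 or any shPUS1 library, when 0 of the 40 genes passed. With DESeq2, 4 of these genes passed, adding HSPA2, CHORDC1 and PTGES3, which are named here after their values were seen, against 13.0% of all genes with DESeq2. CHORDC1, an HSP90 partner, had between 6.82 and 8.68 FPKM in shControl and between 11.3 and 13.7 FPKM in shPUS1, and PTGES3, the HSP90 cochaperone p23, between 89.3 and 108 FPKM and between 68.3 and 75.0 FPKM. HSPA2, a testis-enriched HSP70, was low throughout, between 1.02 and 1.07 FPKM in shControl and between 1.56 and 1.70 FPKM in shPUS1.

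Other chaperones are the nearest comparison, namely those of the endoplasmic reticulum and of mitochondria, and CCT, a chaperonin of the cytosol. Of 10 endoplasmic reticulum chaperones, which the unfolded protein response controls, 0 passed with edgeR and 2 (HSPA5 and DNAJC3, both higher) with DESeq2, against 13.0% of all genes, 8 had a log2 fold change above 0, and the median was 0.22. CALR, the lectin chaperone calreticulin and the most abundant of them, overlapped between the groups, with 549.99 to 713 FPKM in shControl and 586 to 708 FPKM in shPUS1. Of 12 genes for the CCT chaperonin, which folds actin and tubulin, and for mitochondrial chaperones, 0 passed with edgeR and 1 (HSPD1, lower) with DESeq2, against the same 13.0%, 11 had a log2 fold change below 0, and the median was -0.29. CCT4, the most abundant of these, had between 120.3 and 168 FPKM in shControl, where replicate 2 was the highest, and between 122 and 130.01 FPKM in shPUS1. The 10 heat shock genes had 4 log2 fold changes above 0 and 6 below 0, spread from -0.77 to 1.26. Over the 14748 genes tested, 6979 were above 0 and 7769 below 0. The unadjusted p was under 0.05 for 5 of the 10 heat shock genes, for 3 of 10 endoplasmic reticulum chaperones and for 4 of 12 chaperonin and mitochondrial genes, against 25.5% of all genes tested. No difference between these lists was tested.

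**Figure D4:**
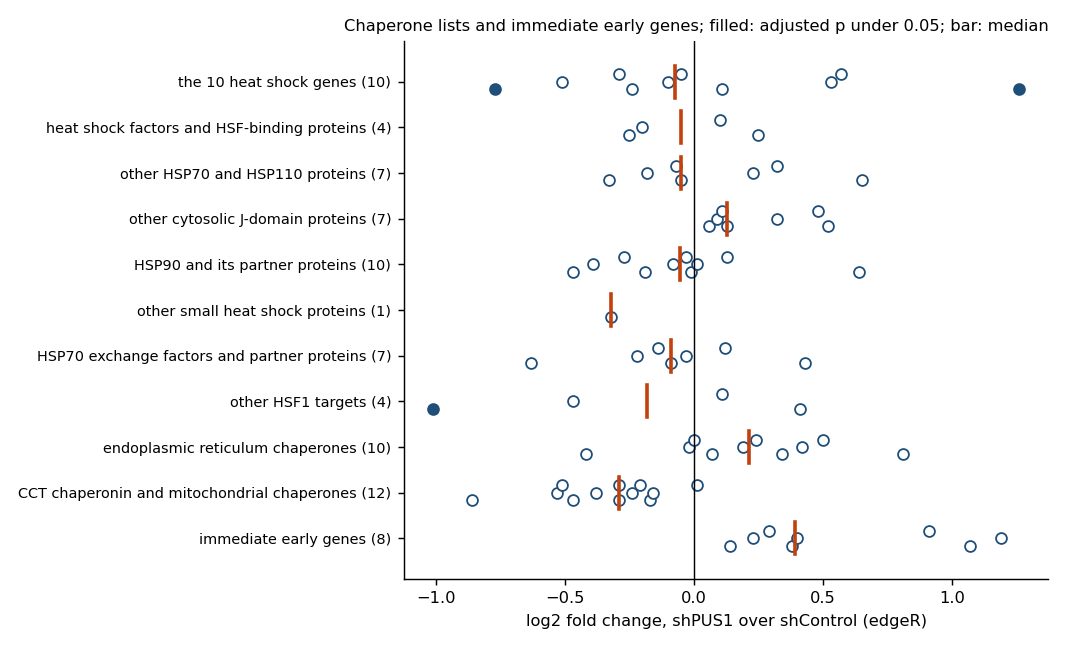
Log2 fold change, shPUS1 over shControl (edgeR), of every tested gene in the 10 heat shock genes and in 10 other lists, with the number tested in brackets. Filled points had an adjusted p under 0.05, and orange bars are list medians. The 10 heat shock genes range from -0.77 to 1.26 around a median of -0.08, and SERPINH1, at -1.01, is the filled point among other HSF1 targets.

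**Figure D5:**
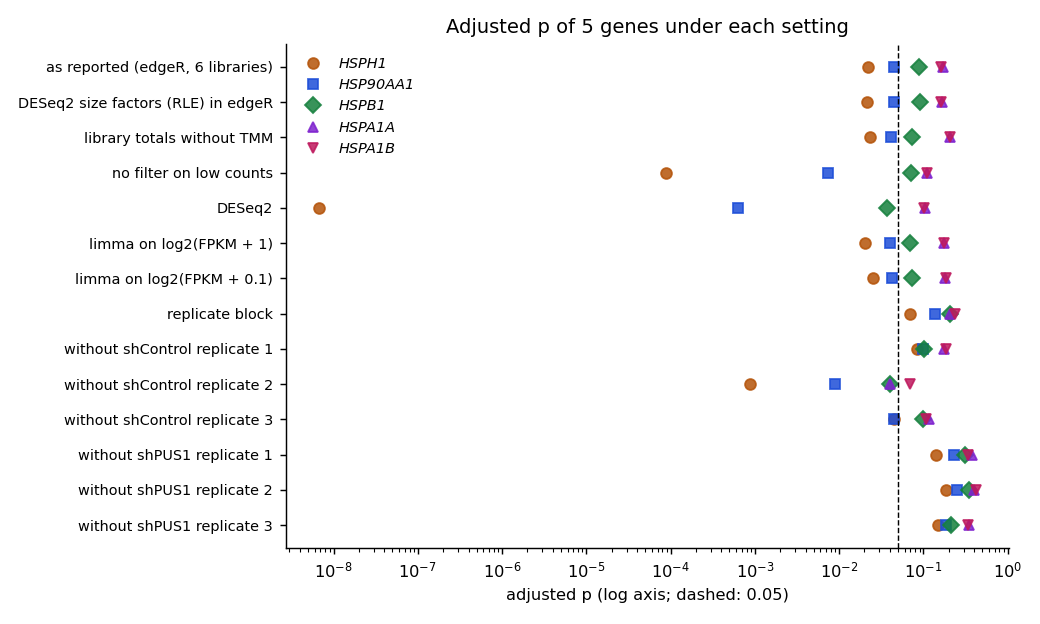
Adjusted p of HSPH1, HSP90AA1, HSPB1, HSPA1A and HSPA1B as reported and under each of 13 alternatives, on a log axis with a dashed line at 0.05. HSPH1 and HSP90AA1 lie left of the line in the fit with all 6 libraries, in 6 alternatives of scaling, filter and tool, and without shControl replicate 2 or 3. They lie right of it with the replicate block and without shControl replicate 1 or any shPUS1 library.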

How the data were processed

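Poly(A)-selected RNA of 3 shControl and 3 shPUS1 cultures was sequenced. The submitters' processing notes name HISAT2 and HTSeq 0.6.1, while the genome build, the annotation and the strandedness are not given in the sources used here. The deposited estimated counts per gene were made by the authors without normalization, and between 29.8% and 31.8% of the values above 0 are not whole. The deposited FPKM were made by the authors from these counts by scaling to exonic length and library total, and recomputing them gave the same values within 0.005. Knockdown columns are named by replicate and were matched to titles by it. No per-sample columns were left out.

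Rounded counts passed through filterByExpr and TMM scaling, with factors between 0.973 and 1.03. R 4.3.3 and edgeR 4.0.16 served for the quasi-likelihood comparison of the groups, and Benjamini-Hochberg adjustment ran over 14748 genes. A gene passed at an adjusted p under 0.05. Values per gene and library are FPKM as deposited, and ratios and sums of FPKM were compared with an exact permutation test over libraries. The edgeR comparison was also run on simulated counts drawn with the dispersion of these data. It found 131 of 200 genes given a log2 change of 1 (9 false calls, 14484 genes run). With a log2 change of 2 it found 199 of 200 (14 false calls, 14506 genes run). No simulated library was made to stand apart as shControl replicate 2 does, so these rates may not hold for the deposited counts. Alternatives used DESeq2 1.42.0, and limma 3.58.1 on log2(FPKM + 1) and log2(FPKM + 0.1) for genes with a mean of at least 1 FPKM, and also other scalings, no filter, a replicate block and each library left out. Python 3.11.15 with pandas 2.3.3, scipy 1.17.1 and matplotlib 3.10.9 gave the rest.

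The 10 genes and all lists, which were written from general knowledge, were chosen with earlier results of these data known. The rule for naming took all 10 genes, PUS1, up to 4 genes that passed in each other list or else its most abundant gene, and the 5 genes most like the sum of HSPA1A and HSPA1B. All other genes named (HSPA2, HSPA6, CHORDC1, PTGES3, HSPA5, DNAJC3, DNAJB2, DNAJB6, HSPD1, IER2, the other cell markers, the overlapping genes and HSPB1P1) fall outside it and were named after values, sequences or positions were seen. Shared stretches of 100 bases were searched in GENCODE release 29 transcripts, and promoters are those of RefSeq.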

Additional observations from a re-analysis of the deposited data

How the results depend on the processing

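The direction was the same under all 13 alternatives for 9 of the 10 genes, and DNAJB1 turned from -0.05 to 0.12 without shControl replicate 2, with a range of -0.184 to 0.12 when 1 library was left out. The number of the 10 genes past the threshold was 2 under 5 alternatives of scaling, filter and tool (both limma fits among them) and without shControl replicate 3, 3 with DESeq2, and from 0 to 4 when 1 library was left out. Without shControl replicate 2 it was 4 (HSPA1A and HSPH1 higher, HSPB1 and HSP90AA1 lower), and without shControl replicate 1 or any shPUS1 library it was 0. For the other pathway genes the count of 1 became 2 without a filter, 4 with DESeq2, and 0 to 4 when 1 library was left out. For all genes the count of 380 became 1284 without a filter, 1730 with DESeq2, 250 with limma at a pseudocount of 0.1, and 0 to 2813 when 1 library was left out, with 2813 without shControl replicate 2 and 474 without shControl replicate 3. The summed HSPA1A and HSPA1B change lay between 0.321 and 0.686 when 1 library was left out and passed only without shControl replicate 2 (adjusted p = 0.0463, range 0.0463 to 0.408 over the alternatives). The PUS1 log2 fold change lay between -1.862 and -1.001, with adjusted p between 0.000106 and 0.253, and PUS1 did not pass with limma, with the block, or without shControl replicate 1 or any shPUS1 library.

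Libraries that share a replicate number were not paired, as their deviations from the group means correlated across genes at -0.053, -0.026 and -0.19, and 0 of 6 libraries correlated best with their own number. With the replicate number as a block 0 of the 10 genes, 0 other pathway genes and 18 genes in all passed, with an adjusted p of 0.0693 for HSPH1 and 0.137 for HSP90AA1, and 5 of the 10 genes had an unadjusted p under 0.05. Leaving out 1 library leaves 5 and fewer degrees of freedom. The cause of the differences between alternatives was not tested.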

Other observations

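The genes whose pattern over the 6 libraries was most like that of HSPA1A and HSPA1B summed, by the mean absolute difference of centred log2 CPM, were BBS12 (0.0211), ZNF468 (0.0374), ARID4A (0.0425), WDR26 (0.0449) and CAVIN4 (0.0466). Their log2 fold changes lay between 0.47 and 0.61, and none of these 5 genes passed (edgeR adjusted p between 0.184 and 0.223). Values near those of the sum follow from the choice by pattern and are no separate result. The 3-unit heat shock element was also present in the RefSeq promoter windows of HSPA6, DNAJA1, DNAJB6, CHORDC1, HSP90AB1, SERPINH1 and HSPD1, of which SERPINH1 passed with edgeR and was lower. The others did not pass with edgeR on all 6 libraries, while with DESeq2 CHORDC1 (higher) and HSPD1 (lower) passed as well.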
